A study of Homo sapiens with 32 samples.

Results

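The genes described here are 39 genes of homologous recombination and of the Fanconi anaemia pathway, chosen by name from a list of repair factors. All 39 were found among the 60332 genes of the deposited tables, each on 1 row, and all 39 passed the filter on low counts in every part of the series. RNA selected for poly-A tails was sequenced in 32 libraries from 16 groups of 2 libraries, in 3 parts that were normalised and tested separately. MCF10A cells are human mammary epithelial cells, immortal but not transformed, with basal features, while hTERT RPE-1 cells descend from human retinal pigment epithelium and carry telomerase. Every irradiated group received 10 Gy, and a drug, where one was given, was added 1 h before irradiation and stayed on the cells until collection.

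Part 1 held wild type (WT) MCF10A cells that were untreated, or irradiated with vehicle (DMSO) and collected 3 or 5 days later. It also held WT cells kept for 5 days after irradiation in a CDK1 inhibitor (CDK1i). Knockout (KO) MCF10A cells for cGAS, STING or XRCC4 were collected 5 days after irradiation. Part 2 held MCF10A cells collected 3 days after irradiation: WT, p53 KO, XRCC4 KO and the XRCC4 p53 double knockout (DKO). The XRCC4 KO and DKO cells were each also measured with an inhibitor of ATR (ATRi). In part 3 all RPE-1 groups got ATRi and were collected 3 days after irradiation, and their labels read WT, WT cGAS and p53 KO. Lentiviral CRISPR-Cas9 was used for the knockouts, and each line was expanded from a single cell, so each knockout effect rests on a clonal line. A clone's own traits and the lost gene cannot be told apart, and no knockout cells without irradiation were measured. DMSO is named in the labels of irradiated WT cells of part 1 and of no other group. Whether paired libraries are separate cultures is not stated, so p-values measure the spread between these libraries, which may be technical.

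Homologous recombination repairs a DNA double-strand break by copying the intact sister chromatid, and so works mainly in S and G2 phase. The MRE11-RAD50-NBN complex senses the end, RBBP8 (CtIP) starts its resection, and EXO1 and DNA2 extend it. BRCA1 with BARD1 and PALB2 with BRCA2 then load the recombinase that invades the sister strand, helped by its paralogs, by RAD54L and RAD54B, and by RAD51AP1. Crossed strands are undone by BLM with TOP3A, RMI1 and RMI2, or cut by GEN1 and by MUS81 with EME1 on the SLX4 scaffold. The Fanconi pathway repairs crosslinks between strands: a core complex with the ubiquitin-conjugating enzyme UBE2T marks the FANCD2-FANCI pair. POLQ joins ends by a separate, error-prone route, XRCC4 acts in non-homologous end joining, and ATR is the kinase that signals stalled forks and resected ends. Many of these genes are known to be transcribed mostly in S and G2 phase, and p53 with its target CDKN1A holds damaged cells out of the cycle.

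Total counts ran from 5590061 to 18585999 per library, and the 39 genes together took between 0.0488 and 0.166% of them. Levels are given as CPM, counts scaled to a common library size by TMM within a part, and changes as log2 fold changes ± standard error from edgeR's quasi-likelihood test. Genes are named higher or lower where the test called them, at a Benjamini-Hochberg adjusted p below 0.05 over all genes tested in the part. Of the 39 intervals in the count table, 27 are shared with another row, and the strand setting was not stated, so reads of overlapping genes cannot be told apart. The libraries of part 1 were less alike than the others: chi-square values per gene, comparing a group's 2 libraries, ran from 21.5 to 45.1 in its 4 WT groups and was 27.6 in STING KO, and it was at most 3.38 in all other groups. The p53 target markers, a list of 16 genes that includes CDKN1A, checked the p53 labels: 16 of 16 were lower in both MCF10A groups without p53 than in their p53-proficient counterparts. The XRCC4 transcript was no check of the XRCC4 label, at 8.80 and 8.36 CPM in XRCC4 KO against 7.06 and 7.14 CPM in WT cells at 3 days. The basal epithelial list was present in all MCF10A libraries (summed CPM 9763 to 28397), and its sum in RPE-1 was 177 to 400. The retinal pigment epithelial list did not set the lines apart. Its sums were 251 to 872 in RPE-1, 250 to 706 in part 1 and 376 to 1110 in part 2. Of its 10 genes 4 stayed below 1 CPM in all RPE-1 libraries. In RPE-1 RPE65 stayed at or below 0.0518 CPM and OTX2 ran from 19.1 to 27.3 CPM. The lines were not alike in all else: KRT14, a basal keratin named after its values were seen, read 43.5 and 44.8 CPM in WT, 544 and 525 CPM in p53 KO and 5003 and 4951 CPM in XRCC4 KO cells at 3 days. The basal list as a whole did not rise with KRT14 in p53 KO cells. Its mean log2 CPM was 9.72 and 9.74 in WT, 9.74 and 9.67 in p53 KO and 10.65 and 10.65 in XRCC4 KO cells.

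Levels per length differed widely within the pathway. By median FPKM over the MCF10A libraries of part 2, UBE2T (61.1), RAD50 (52.3), RAD51C (45.0) and RECQL4 (41.2) were the most abundant transcripts, and SLX4 (1.53), BRIP1 (1.56) and FANCB (1.58) the least. In RPE-1 the order was led by MUS81 at a median of 48.6 FPKM and RAD50 at 28.5 FPKM. Abundance and variation did not go together by name: the highest library exceeded the lowest by 47.1 times in CPM for RMI2, by 30.2 times for RAD54L, by 29.3 times for BLM and by 24.99 times for EXO1 in part 2. By the same measure RAD52 varied 1.31 times, PALB2 1.40 times, MUS81 1.43 times and RAD51C 1.68 times. In part 2 SLX4 and HELQ also varied by less than RAD54L, BLM and EXO1, by 1.68 and 1.76 times.

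**Figure D1:**
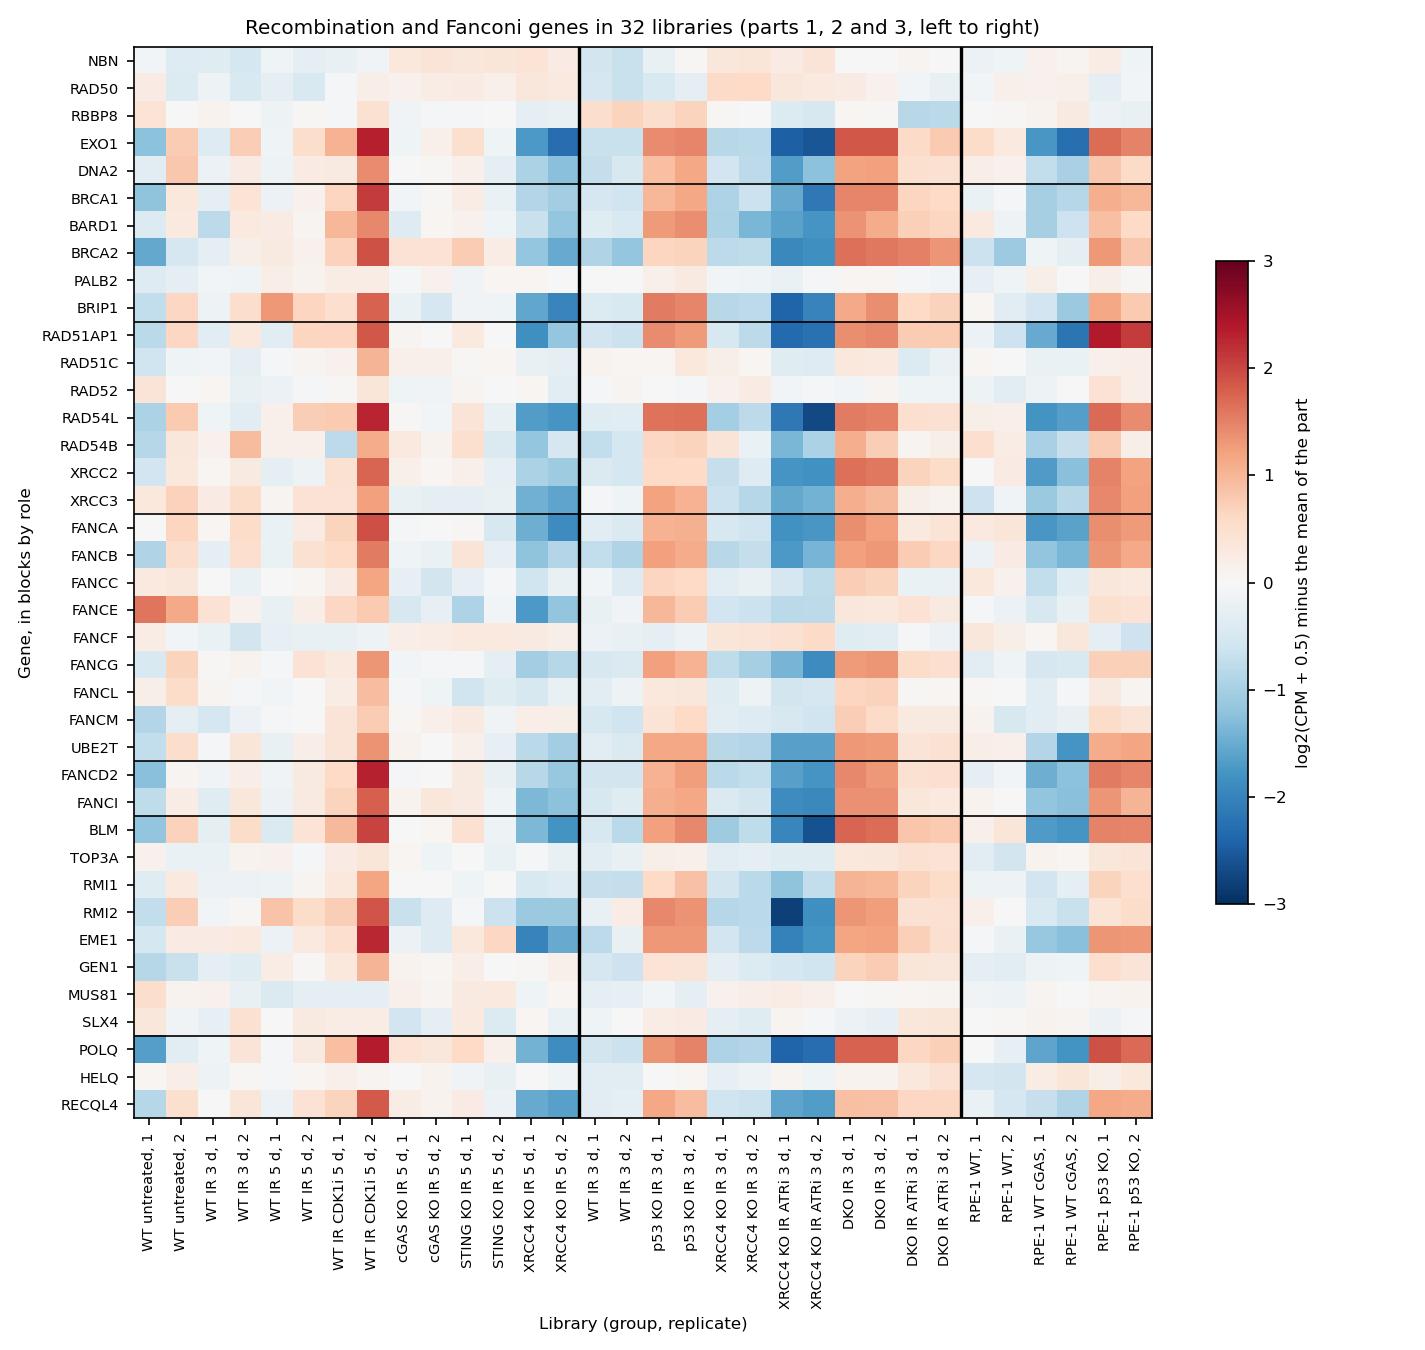
Level of the 39 genes (rows, in blocks by role) in each of the 32 libraries (columns), as log2(CPM + 0.5) minus the gene's mean over its part; red is above and blue below that mean, and vertical lines separate parts 1, 2 and 3. In part 2 the p53 KO and DKO libraries are red for most genes and the XRCC4 KO libraries with ATRi are blue, while RAD52, PALB2, MUS81, SLX4 and HELQ stay pale.

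Loss of p53 was compared first, in irradiated MCF10A cells at 3 days. Without p53, 34 of 39 genes were higher and 0 were lower, where 25.9% of all genes tested were called higher and 52.9% called either way. The median log2 fold change of the 39 genes was 1.44, beside 0.01 over all genes. All 5 genes not called were near no change: RAD52, RBBP8, RAD51C, MUS81 and FANCF had log2 fold changes between -0.06 and 0.11.

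Among the end resection genes, EXO1, the exonuclease of long-range resection, stood at 13.0 and 13.1 CPM in WT and at 56.8 and 58.9 CPM in p53 KO cells. The groups did not overlap, and the log2 fold change was 2.15 ± 0.08 (edgeR adjusted p = 9.8e-18), a 4.43-fold difference. The helicase-nuclease DNA2 followed at 1.68 ± 0.12, while the sensor genes moved little, NBN by 0.52 ± 0.07 and RAD50 by 0.23 ± 0.07. RBBP8, which starts resection, had 124 and 137 CPM in WT against 124 and 137 CPM in p53 KO cells.

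The BRCA genes were higher in all 5 cases. BRCA1 stood at 16.1 and 15.1 CPM in WT and at 46.9 and 52.0 CPM in p53 KO cells, a 3.16-fold difference. BRCA2 stood at 7.82 and 6.38 CPM against 23.7 and 24.2 CPM, which is 3.39-fold. The BRCA1-associated helicase BRIP1 (2.05 ± 0.12) and the BRCA1 partner BARD1 (1.84 ± 0.12) had similar changes, and PALB2, which bridges BRCA1 to BRCA2, had a small one (0.20 ± 0.07, edgeR adjusted p = 0.022). Of the 7 strand exchange genes 5 were higher, led by RAD51AP1 (2.06 ± 0.11) and the motor protein RAD54L (2.05 ± 0.10), whose libraries read 7.13 and 7.43 CPM in WT against 29.9 and 30.4 CPM without p53. XRCC2, a recombinase paralog, changed least of the 5, by 1.12 ± 0.09.

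In the Fanconi pathway 8 of 9 core and E2 genes were higher. FANCB, a core subunit, had the largest log2 fold change of all 39 genes at 2.40 ± 0.21 but a low level, 1.25 and 1.05 CPM in WT against 6.31 and 5.78 CPM in p53 KO cells. FANCL, the ubiquitin ligase of the core, was the least changed of the 8 at 0.58 ± 0.09. UBE2T went from 31.1 and 28.6 CPM to 87.0 and 87.8 CPM, and both members of the pair it ubiquitinates were higher, FANCD2 by 1.74 ± 0.09 and FANCI by 1.56 ± 0.06. Among the genes that resolve crossed strands, 7 of 8 were higher, from BLM at 2.07 ± 0.13 to SLX4 at 0.30 ± 0.10. POLQ, the end-joining polymerase, stood at 13.0 and 12.3 CPM in WT and at 49.2 and 55.5 CPM in p53 KO cells, a 4.13-fold difference, and RECQL4 and HELQ were higher by 1.38 ± 0.07 and 0.38 ± 0.11.

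The same loss was tested in cells that also lacked XRCC4. In DKO against XRCC4 KO cells 31 genes were higher and 3 lower, beside 32.2 and 32.7% of all genes called higher and lower (64.9% either way). The median was 1.85, beside 0.02 over all genes. All 31 were among the 34 called higher in the XRCC4-proficient cells, so they made up 91.2% of the first list and 100% of the second. Among all genes tested 2630 (15.8%) were higher in both, out of 4306 higher in p53 KO and 5357 higher in DKO cells. BLM changed most, from 4.07 and 5.13 CPM in XRCC4 KO to 31.376 and 30.035 CPM in DKO cells (2.74 ± 0.13). EXO1 (2.73 ± 0.08) and POLQ (2.72 ± 0.08) followed closely, and BRCA2 was higher by 2.45 ± 0.10. The 3 genes that were lower without p53 in this background were FANCF (-0.73 ± 0.08), RAD50 (-0.38 ± 0.07) and NBN (-0.34 ± 0.07). On deposited FPKM values RAD50 turned to a difference of 0.11 in this comparison.

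RPE-1 cells gave a second cell line, in which every group also received ATRi. In p53 KO against WT RPE-1 cells 30 of 39 genes were higher and 3 lower, beside 34.2 and 32.5% of all genes (66.7% either way), and the median was 0.79, beside 0.03 over all genes. RAD51AP1, which stimulates strand invasion, stood at 4.93 and 3.49 CPM in WT and at 31.4 and 25.6 CPM in p53 KO cells, a 6.82-fold difference. BRCA2 stood at 4.21 and 2.98 CPM against 17.8 and 12.5 CPM (2.08 ± 0.22), and POLQ at 5.21 and 4.25 CPM against 20.6 and 17.8 CPM (2.02 ± 0.14). Lower were FANCF (-0.73 ± 0.15), RAD50 (-0.23 ± 0.08) and RBBP8 (-0.21 ± 0.06), of which RAD50 and RBBP8 turned to 0.29 and 0.25 on log2(FPKM + 1). BARD1, higher by 0.73 ± 0.17 in counts, also turned on that scale, to -0.62.

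Across the 3 comparisons without p53, 28 genes were higher each time: 82.4% of the 34 called in p53 KO, 90.3% of the 31 in DKO and 93.3% of the 30 in RPE-1 cells. Of 14322 genes tested in both lines 1619 (11.3%) did so, where 4306, 5357 and 5287 of all genes tested were called higher in the respective comparisons. The 3 genes called higher in none of them were RBBP8, RAD51C and FANCF. The sizes were not alike in the lines: BARD1 and DNA2 had log2 fold changes of 1.84 and 1.68 in MCF10A but 0.73 and 0.56 in RPE-1, and the difference between the lines was not tested. Every RPE-1 group received ATRi while the MCF10A p53 KO group did not, so the line and the drug cannot be told apart here. Under ATRi, MCF10A cells with and without p53 were compared only in cells lacking XRCC4 (DKO against XRCC4 KO), with a median of 2.05.

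**Figure D2:**
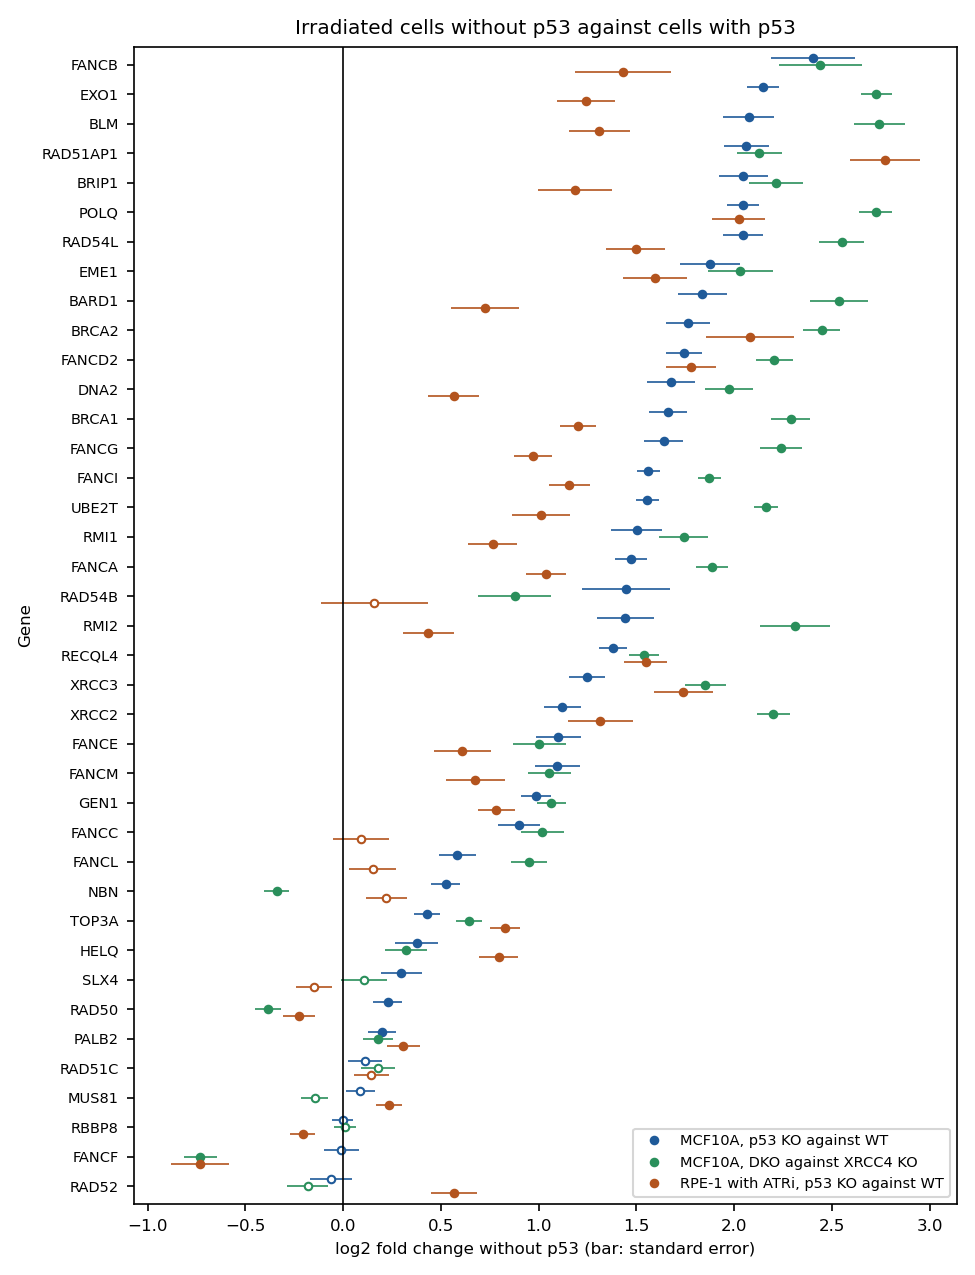
Log2 fold change without p53 (x axis, bars are standard errors) of each gene (y axis) in 3 comparisons of 2 against 2 libraries; filled points were called at an adjusted p below 0.05 and open points were not. The medians of the 39 genes are 1.44, 1.85 and 0.79 in p53 KO against WT, DKO against XRCC4 KO and RPE-1 p53 KO against WT, and RAD51C, RBBP8 and FANCF were called higher in none of the 3.

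Cell cycle genes moved in the same comparisons. Of 41 S phase markers, 41 were higher in p53 KO and 41 in DKO cells than in their p53-proficient counterparts (medians 1.54 and 1.99), and of 30 G2-M markers, 30 and 30 (medians 2.20 and 3.04). In RPE-1 p53 KO cells 37 of 41 and 30 of 30 were higher. MCM2, a replication helicase subunit, read 44.7 and 41.9 CPM in WT and 163 and 151 CPM in p53 KO MCF10A cells. The p53 target CDKN1A, the inhibitor that arrests the cycle, read 1327 and 1385 CPM against 145 and 136 CPM. The part of cell cycle distribution in the differences of the 39 genes was not tested, and in bulk RNA fewer cells that express a gene and less RNA per cell cannot be told apart.

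The mean log2 CPM of the 39 genes per library shows the order of the groups in part 2. It was lowest in XRCC4 KO with ATRi (2.76 and 2.78), then 3.58 and 3.55 in XRCC4 KO, 3.64 and 3.64 in WT, 4.41 and 4.40 in DKO with ATRi, 4.81 and 4.84 in p53 KO and 4.96 and 4.93 in DKO. No 2 groups overlapped. The S phase list gave the same order, from 3.35 and 3.34 to 6.12 and 6.12, and the p53 target list ran the other way in that all 3 p53-null groups lay below 5 and all 3 p53-proficient groups at 6.95 or above. In RPE-1 the 39 genes stood at 2.48 and 2.47 in WT cGAS, 3.24 and 3.18 in WT and 4.13 and 3.99 in p53 KO cells.

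**Figure D3:**
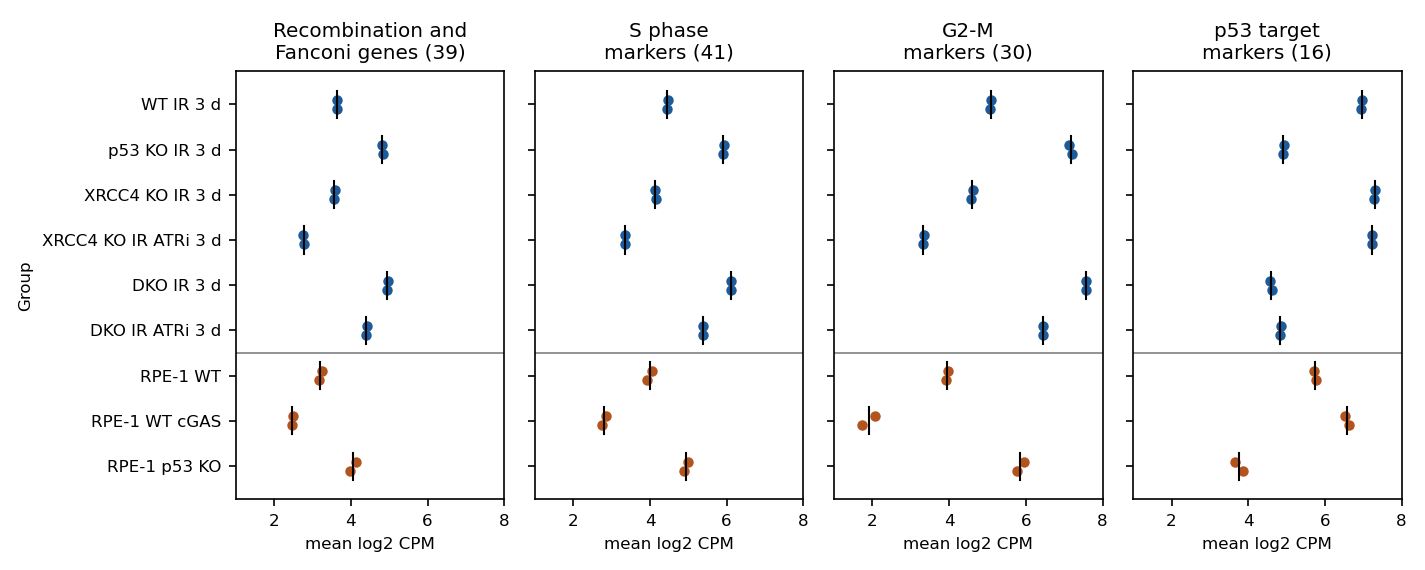
Mean log2 CPM (x axis) of 4 gene lists in each library (points) of the groups of part 2 (blue) and part 3 (orange), with the group mean as a black bar; parts were normalised separately. The 39 genes, the S phase markers and the G2-M markers are high in p53 KO and DKO, lower with ATRi and lowest in RPE-1 WT cGAS within part 3, while p53 targets are low in all groups without p53.

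Because the genes moved together, their promoters were searched for short words known from cell cycle promoters. RefSeq promoters (GRCh38.p14, 250 bases before to 50 after the start) matched 33 of the 39 genes by symbol. An E2F word (TTTCCCGC, TTTCGCGC, TTTGCCGC or TTTGGCGC, either strand) was in 6 of 33 (18.2%), beside 3.33% of 27305 promoters, 55.6% of the S phase list and 8.0% of the G2-M list. A CHR word (TTTGAA or TTCGAA, either strand), known from genes of late cell cycle, was in 15.2%, beside 16.6% of all promoters and 72.0% of the G2-M list. The CCAAT box was in 39.4%, beside 35.7%. The 6 genes with an E2F word were EXO1, XRCC2, FANCA, FANCC, FANCD2 and GEN1, and 4 of these are shown to let the words be seen near the start. POLQ, which has the CHR word, is shown beside them. Each stretch runs from 60 bases before to 30 after the start, 5′ to 3′ on the gene's strand. Capitals mark the word, and GCGGGAAA is an E2F word read on the other strand.

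EXO1, chr1:241848144-241848233, plus strand: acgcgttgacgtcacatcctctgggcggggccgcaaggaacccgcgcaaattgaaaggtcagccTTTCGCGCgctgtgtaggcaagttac
FANCD2, chr3:10026377-10026466, plus strand: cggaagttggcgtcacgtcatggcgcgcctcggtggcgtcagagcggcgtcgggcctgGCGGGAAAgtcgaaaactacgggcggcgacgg
XRCC2, chr7:152676112-152676201, minus strand: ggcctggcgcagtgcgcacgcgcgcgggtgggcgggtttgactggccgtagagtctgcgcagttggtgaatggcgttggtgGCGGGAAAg
GEN1, chr2:17753809-17753898, plus strand: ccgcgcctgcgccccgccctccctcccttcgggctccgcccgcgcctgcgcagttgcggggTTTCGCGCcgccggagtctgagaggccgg
POLQ, chr3:121545959-121546048, minus strand: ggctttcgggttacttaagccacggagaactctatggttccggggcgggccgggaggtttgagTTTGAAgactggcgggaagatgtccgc

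A match is a description of letters and not a binding site. All 6 genes with an E2F word were higher in p53 KO cells and all 6 in DKO cells, with medians of 1.30 and 2.04, and of the 27 matched genes without one 22 and 20 were higher, with medians of 1.25 and 1.74. EXO1, whose word begins at base 5 counting the start as 1, and GEN1, whose word begins at base 2, had log2 fold changes of 2.15 and 0.99 in p53 KO cells.

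The ATR inhibitor was tested in irradiated XRCC4 KO cells and, separately, in DKO cells. In XRCC4 KO cells 24 genes were lower with ATRi and 1 was higher, beside 10.3 and 6.67% of all genes (17% either way), and the median was -0.81, beside 0.003 over all genes. RAD51AP1 changed most, from 5.98 and 4.71 CPM to 1.27 and 1.41 CPM (-2.00 ± 0.23). RMI2, a subunit of the BLM complex, went from 2.63 and 2.74 CPM to 0.318 and 1.07 CPM, and EXO1 from 11.5 and 11.7 CPM to 3.43 and 3.08 CPM. These libraries did not overlap between the groups.

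By role, 4 of 5 sensing and resection genes, 6 of 7 strand exchange genes and both members of the FANCD2-FANCI pair were lower with ATRi in XRCC4 KO cells, though RAD50 turned from -0.26 to 0.07 on log2(FPKM + 1). FANCI went from 34.2 and 31.7 CPM to 12.2 and 11.7 CPM (-1.46 ± 0.09). BRCA1 (-1.05 ± 0.16), BRCA2 (-1.22 ± 0.17) and BRIP1 (-1.73 ± 0.27) were lower, while PALB2 was not called (-0.00 ± 0.08). Fewer of the core genes passed the test, 4 of 9, led by FANCA at -1.32 ± 0.13. The exception in direction was SLX4, the nuclease scaffold, which was higher by 0.36 ± 0.12 (edgeR adjusted p = 0.034).

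In DKO cells 30 genes were lower with ATRi and 3 higher, beside 32.4 and 26.1% of all genes (58.5% either way), with a median of -0.64 beside -0.02. The 24 genes lower in XRCC4 KO were all lower again, which is 100% of the first list and 80% of the second. Among all genes 1301 (7.82%) were lower in both, out of 1721 lower in XRCC4 KO and 5387 lower in DKO cells. Being lower again was thus common among all genes too. EXO1 was again among the most changed, from 76.8 and 77.0 CPM to 31.4 and 36.2 CPM (-1.18 ± 0.06), with POLQ at -1.10 ± 0.06. SLX4 was again higher, by 0.59 ± 0.10, joined by the helicase HELQ (0.30 ± 0.09) and FANCF (0.24 ± 0.09). RBBP8, not called in either p53 comparison of MCF10A cells without ATRi, fell by 0.86 on the log2 scale, from 89.0 and 87.8 CPM to 48.4 and 49.1 CPM. BRCA2 changed least of the lower genes, at 47.8 and 46.0 CPM without and 43.5 and 38.3 CPM with ATRi (-0.20 ± 0.07). On log2(FPKM + 1) BRCA2 read 0.01, RECQL4 0.03 and BARD1 0.24 in this comparison, against lower values in counts.

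The cell cycle lists moved in the same direction with ATRi. Of 41 S phase markers 36 were lower in XRCC4 KO and 41 in DKO cells (medians -0.74 and -0.68), and of 30 G2-M markers 30 and 30 (medians -1.43 and -1.14). CCNB1, the mitotic cyclin, read 51.0 and 50.5 CPM without and 31.995 and 31.554 CPM with ATRi in XRCC4 KO cells. Their part in the response of the 39 genes was not tested. The labels name no vehicle for the groups without ATRi in part 2.

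**Figure D4:**
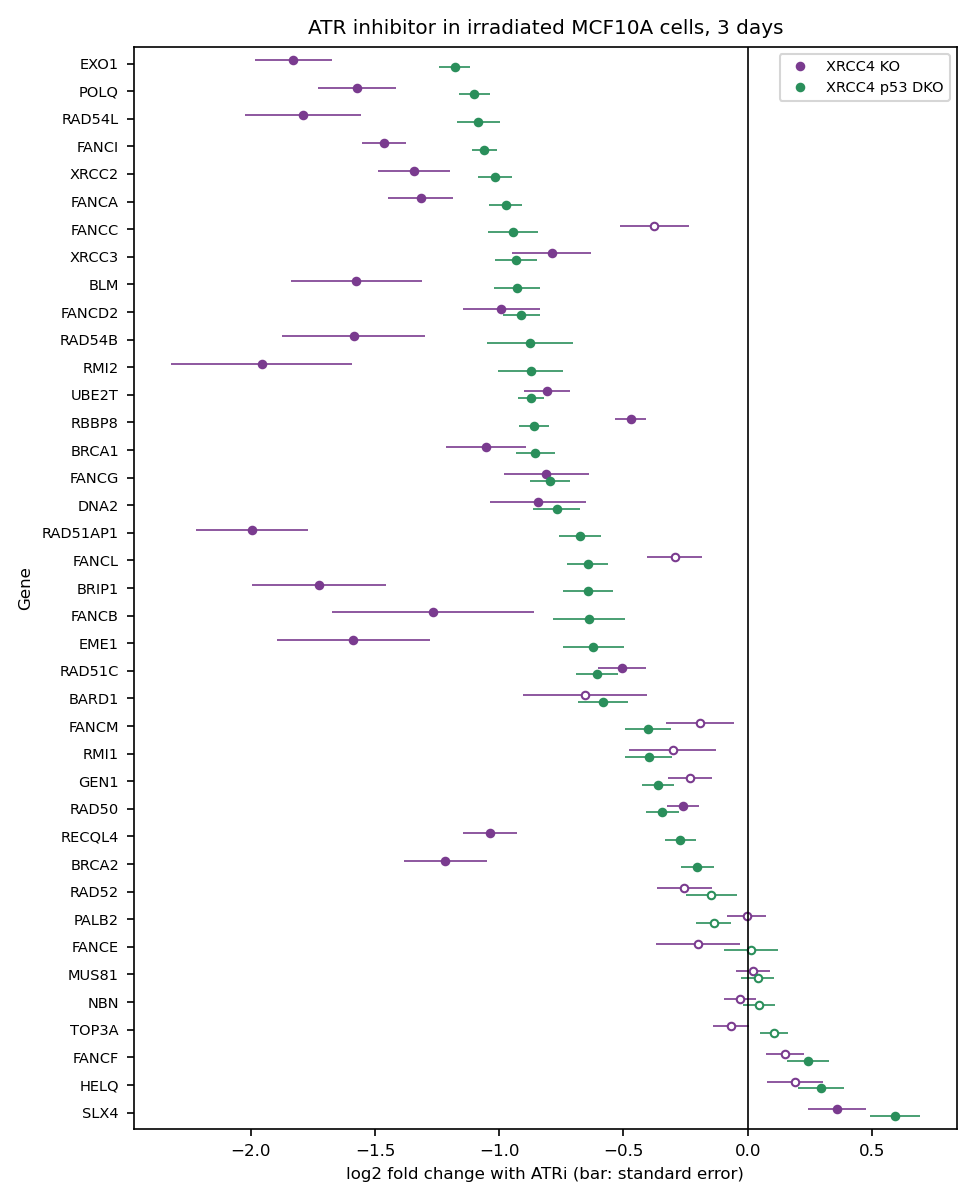
Log2 fold change with ATRi (x axis, bars are standard errors) of each gene (y axis) in XRCC4 KO and in DKO cells, 2 against 2 libraries each; filled points were called at an adjusted p below 0.05. RAD51AP1, BRIP1, BRCA2, RECQL4 and EME1 lie further left in XRCC4 KO than in DKO, RBBP8 and FANCC further right, and SLX4 lies right of 0 in both.

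Whether the drug effect differed with p53 was tested as the difference of the 2 responses. It was called for 12 genes, 10 positive (a smaller fall in DKO) and 2 negative, beside 13 and 21% of all genes (34% either way), so the share called was near that of all genes. The median was 0.11, beside -0.05. BRCA2 had 8.54 and 8.64 CPM without and 3.56 and 3.82 CPM with ATRi in XRCC4 KO cells, a 2.33-fold fall, against 1.15-fold in DKO cells. The difference was 1.02 ± 0.18 (edgeR adjusted p = 7.8e-05). RAD51AP1 had the largest positive difference (1.32 ± 0.25). BRIP1 (1.08 ± 0.29), RMI2 (1.08 ± 0.40), EME1 (0.97 ± 0.34), RECQL4 (0.77 ± 0.13), RAD54L (0.70 ± 0.26) and EXO1 (0.65 ± 0.17) were among the others called. The negative pair was FANCC (-0.57 ± 0.17) and RBBP8 (-0.39 ± 0.09). FANCD2 (0.08 ± 0.17), BRCA1 (0.20 ± 0.18) and UBE2T (-0.06 ± 0.11) were not called. This result leans on the count scale: on log2(FPKM + 1) 2 genes were called in place of 12, and BRIP1, RAD54L, EME1 and POLQ turned to values between -0.80 and -0.21, and RBBP8 to 0.0013. DESeq2 called 7.

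With ATRi on both sides, 31 genes were higher in DKO than in XRCC4 KO cells and 4 lower, beside 35.7 and 36.1% of all genes (71.8% either way), and the median was 2.05, beside 0.02. BRCA2 differed 11.03-fold (3.46 ± 0.11), RAD51AP1 10.9-fold, BLM 10.5-fold and EXO1 10.4-fold. RBBP8 (-0.38 ± 0.06), NBN (-0.26 ± 0.06), RAD50 (-0.47 ± 0.07) and FANCF (-0.64 ± 0.08) were lower, and RBBP8 turned to 0.21 on log2(FPKM + 1). This comparison shares libraries with those of ATRi in each line.

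Loss of XRCC4, the end-joining scaffold, gave no common direction at 3 days. In XRCC4 KO against WT cells 6 genes were higher and 11 lower, beside 28.6 and 27.5% of all genes (56.1% either way), so fewer of the 39 genes were called than of all genes, and the median was -0.10, beside -0.01. The clearest differences were in the sensor complex. RAD50, the ATPase that tethers ends, stood at 106 and 94.3 CPM in WT and at 224 and 226 CPM in XRCC4 KO cells (1.17 ± 0.07, edgeR adjusted p = 7.0e-10). NBN, its partner, stood at 43.9 and 40.9 CPM against 81.9 and 83.2 CPM (0.96 ± 0.07). RBBP8 went the other way, from 124 and 137 CPM to 88.5 and 87.1 CPM. RAD54B (0.89 ± 0.25), FANCF (0.59 ± 0.08), MUS81 (0.44 ± 0.07) and GEN1 (0.25 ± 0.09) were the other genes that were higher, and GEN1 turned to -0.30 on log2(FPKM + 1).

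The lower genes at 3 days came from every role except the FANCD2-FANCI pair. They ran from RMI2 (-0.99 ± 0.22) and BARD1 (-0.80 ± 0.20) over the paralog XRCC3 (-0.70 ± 0.12), RAD54L, FANCE, UBE2T, FANCG, POLQ and RECQL4 to SLX4 (-0.28 ± 0.12). BRCA1 read 16.1 and 15.1 CPM in WT and 12.0 and 14.7 CPM in XRCC4 KO cells, which do not overlap but did not pass the test (-0.23 ± 0.13, edgeR adjusted p = 0.14). BRCA2, EXO1, FANCD2, FANCI and BLM were not called either, with log2 fold changes between -0.28 and 0.29. Of the S phase markers 25 were lower and 8 higher, and of the G2-M markers 26 lower and 1 higher.

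At 5 days, in part 1 with its own WT cells, 3 genes were higher and 10 lower in XRCC4 KO, beside 12.4 and 12.4% of all genes (24.7% either way), and the median was -1.14, beside -0.03. BRIP1 changed most, from 12.0 and 7.41 CPM in WT to 1.21 and 0.772 CPM in XRCC4 KO cells (-3.25 ± 0.68, edgeR adjusted p = 0.0079). RAD54L (-2.70 ± 0.83), RMI2 (-2.27 ± 0.65), POLQ (-1.93 ± 0.61), XRCC3 (-1.91 ± 0.30), FANCA (-1.82 ± 0.48), RECQL4 (-1.81 ± 0.52), BRCA2 (-1.63 ± 0.48), FANCE (-1.61 ± 0.35) and FANCI (-1.40 ± 0.44) were also lower. Among the uncalled genes EXO1 stood at 8.52 and 13.8 CPM in WT and at 2.52 and 1.54 CPM in XRCC4 KO cells (-2.45 ± 0.82, edgeR adjusted p = 0.056). NBN (0.53 ± 0.12), RAD50 (0.68 ± 0.19) and FANCF (0.47 ± 0.14) were higher.

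The 5-day count depended on single libraries. It was 6 without WT replicate 1, 2 without WT replicate 2, 1 without XRCC4 KO replicate 1 and 3 without XRCC4 KO replicate 2, against 13 with all, and 25 when the 4 libraries compared were fitted alone and 20 by DESeq2. In the same comparison 22 of 30 G2-M markers (median -2.47) and 11 of 41 S phase markers (median -1.14) were lower. Their part in the lower repair genes was not tested. Lower at both times were 6 genes, RAD54L, XRCC3, FANCE, RMI2, POLQ and RECQL4, which is 54.5% of the 3-day and 60% of the 5-day list, and higher at both were NBN, RAD50 and FANCF, 50% and 100%. Of all 14969 genes tested in both parts 1476 (9.86%) were lower and 1593 (10.6%) higher at both times. At 5 days 1876 of all genes tested were lower and 1882 higher, so most 5-day calls were shared among genes in general. The shares of the lists above have another denominator than the shares of all genes. The times come from different parts, so the change with time was not tested. At 5 days DMSO is named for the WT cells and not for the XRCC4 KO cells.

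NBN and RAD50 were also near or past the threshold in the other knockouts of part 1. Against the same 5-day WT libraries, NBN was higher in cGAS KO (0.55 ± 0.12) and in STING KO (0.56 ± 0.12), with 98.2 and 104 CPM, 101 and 103 CPM, and 72.7 and 65.3 CPM in WT cells. RAD50 read 0.54 ± 0.19 and 0.56 ± 0.19 there and was not called. NBN was the 1 gene called in cGAS KO (6.65 and 6.88% of all genes higher and lower, 13.5% either way), and NBN, FANCF (0.53 ± 0.14) and MUS81 (0.63 ± 0.16) were the 3 called in STING KO (7.43 and 7.73%, 15.2% either way). The 3 knockouts share the WT libraries, and they also share growth from a single cell. The labels of these WT libraries name DMSO and those of the knockouts do not, so vehicle and knockout cannot be told apart. Without WT replicate 2 the counts were 0 and 0. The cGAS KO count was also 0 without either cGAS KO library, and the STING KO count was 1 without WT replicate 1 or STING KO replicate 1 and 0 without STING KO replicate 2.

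**Figure D5:**
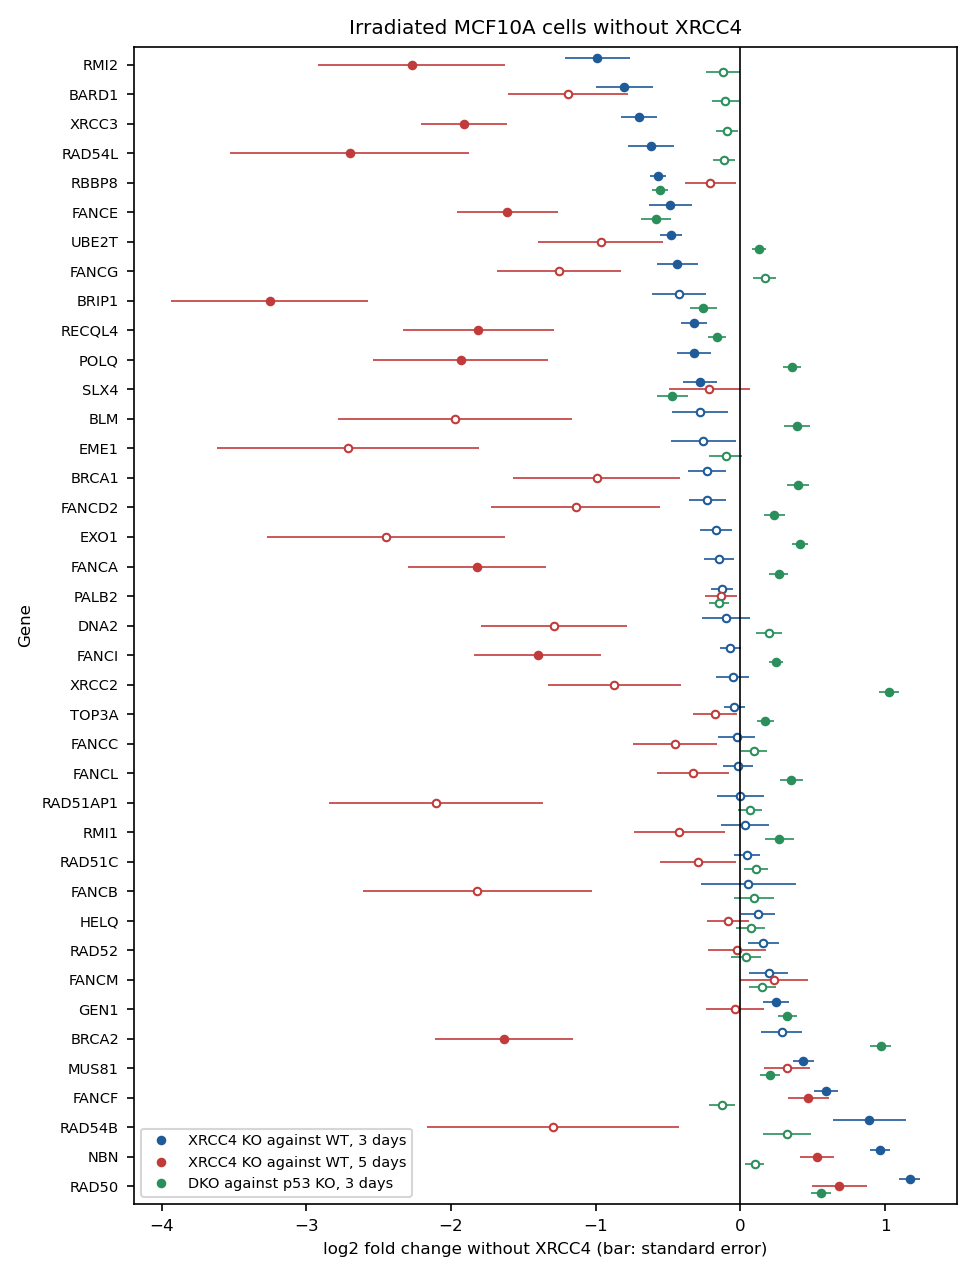
Log2 fold change without XRCC4 (x axis, bars are standard errors) of each gene (y axis) at 3 days, at 5 days and, without p53, at 3 days, 2 against 2 libraries each; filled points were called at an adjusted p below 0.05. The 5-day points spread to -3.25 with wide bars, NBN and RAD50 lie right of 0 in all 3, and XRCC2 and BRCA2 are at 1.03 and 0.97 in the p53-null cells.

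Without p53 the XRCC4 comparison looked different. In DKO against p53 KO cells 16 genes were higher and 5 lower, beside 24.6 and 25% of all genes (49.7% either way), with a median of 0.13 beside -0.0003. XRCC2 stood at 25.8 and 25.9 CPM in p53 KO and at 53.9 and 51.3 CPM in DKO cells (1.03 ± 0.07), and BRCA2 at 23.7 and 24.2 CPM against 47.8 and 46.0 CPM (0.97 ± 0.07). RAD50 was higher by 0.56 ± 0.07 and EXO1, BRCA1, BLM and POLQ by between 0.36 and 0.41. RBBP8 (-0.56 ± 0.05), FANCE (-0.58 ± 0.10), SLX4 (-0.47 ± 0.10), BRIP1 (-0.26 ± 0.09) and RECQL4 (-0.16 ± 0.06) were lower. The count was 12 with DESeq2 and 6 on log2(FPKM + 1), in place of 21.

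The difference between the 2 XRCC4 effects was called for 19 genes, 16 positive and 3 negative, beside 20.9 and 22.8% of all genes (43.7% either way), again a share near that of all genes, with a median of 0.17 beside 0.01. XRCC2 had the largest positive difference: it read 12.3 and 11.5 CPM in WT and 10.2 and 12.7 CPM in XRCC4 KO cells, with no call (-0.05 ± 0.12), and was 2.04-fold higher in DKO than in p53 KO cells (difference 1.08 ± 0.14, edgeR adjusted p = 3.5e-07). RMI2 (0.87 ± 0.25), BRCA2 (0.69 ± 0.16), POLQ (0.68 ± 0.13), BLM (0.67 ± 0.21), BRCA1 (0.63 ± 0.15) and UBE2T (0.61 ± 0.09) followed. BARD1 had 0.70 ± 0.22 in counts but -0.40 on log2(FPKM + 1), where 10 genes were called in place of 19. NBN (-0.86 ± 0.10), FANCF (-0.72 ± 0.12) and RAD50 (-0.61 ± 0.10) were the negative ones, and the XRCC4 effects on NBN and FANCF in p53-null cells were 0.10 and -0.13 with no call. RBBP8 was lower without XRCC4 in both backgrounds, by -0.57 ± 0.06 and -0.56 ± 0.05, and the difference was not called (0.01 ± 0.08). Of the S phase markers 28 of 41, and of the G2-M markers 30 of 30, had a positive difference too (medians 0.47 and 0.88).

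In RPE-1 the group labelled WT cGAS had 339 and 345 CPM of MB21D1, the cGAS gene, against 0.143 and 6.35 CPM in the WT libraries, which differ from each other. In this group 22 of the 39 genes were lower and 6 higher than in WT, beside 30 and 29.8% of all genes (59.8% either way), and the median was -0.69, beside 0.02. EXO1 changed most, from 5.71 and 4.70 CPM to 0.766 and 0.393 CPM (-3.14 ± 0.30), followed by BLM (-2.76 ± 0.30), RAD54L (-2.41 ± 0.28), FANCB (-2.35 ± 0.46), FANCA (-2.23 ± 0.17) and XRCC2 (-2.00 ± 0.28). FANCD2 was lower in counts (-1.37 ± 0.21) but turned to 0.08 on log2(FPKM + 1). HELQ (0.84 ± 0.10), BRCA2 (0.75 ± 0.28), TOP3A (0.55 ± 0.08), PALB2 (0.29 ± 0.09), RBBP8 (0.19 ± 0.06) and MUS81 (0.19 ± 0.07) were higher, and BRCA2 turned to -0.15 on that scale. HELQ and TOP3A were also higher in the p53 KO cells (0.79 ± 0.10 and 0.83 ± 0.08), a comparison that uses the same WT libraries.

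Cell cycle and p53 lists moved with the WT cGAS group as well. Of the S phase markers 34 of 41 were lower, of the G2-M markers 30 of 30 (median -2.11), and 13 of 15 p53 targets tested were higher, with CDKN1A at 3439 and 3646 CPM against 2114 and 1985 CPM. The summed CPM of 8 immune and blood cell markers was 327 and 324, against 80.6 and 82.9 in WT and 168 and 170 in p53 KO cells. Of the 8 markers 5 stayed below 1 CPM in every RPE-1 library, with CD3E at 0 and PTPRC below 1 CPM. The part of these lists in the lower repair genes was not tested.

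Few of the 39 genes were called between irradiated WT MCF10A cells with DMSO and untreated WT cells of part 1. The untreated label names no DMSO, so irradiation and vehicle cannot be told apart. A gene without a call is not shown to be unchanged. At 3 days 0 were higher and 1 lower than in untreated cells (3.65 and 2.87% of all genes, 6.52% either way), with 3 genes at an unadjusted p below 0.05 in edgeR and a median of -0.04. At 5 days 2 were higher and 2 lower (15.1 and 14.3% of all genes, 29.3% either way), with 7 at an unadjusted p below 0.05 and a median of 0.11. From 3 to 5 days 0 were called (0.217 and 0.0461% of all genes higher and lower, 0.263% either way), with 2 at an unadjusted p below 0.05 and 0 by DESeq2. The gene lower at both times was FANCE, a core subunit, at 26.3 and 19.1 CPM untreated, 11.4 and 9.26 CPM at 3 days and 7.08 and 9.72 CPM at 5 days (-1.11 ± 0.29 and -1.43 ± 0.29). PALB2 (0.49 ± 0.11) and GEN1 (0.93 ± 0.21) were higher and MUS81 lower (-0.68 ± 0.16) at 5 days.

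The 2 untreated libraries differed from each other. BRCA1 read 5.71 and 17.3 CPM, EXO1 3.73 and 16.5 CPM and BLM 1.61 and 7.18 CPM in them. For EXO1 and BLM the untreated pair spans all 4 irradiated WT libraries with DMSO. The mean log2 CPM of the 39 genes was 3.07 and 3.79, that of the S phase markers 3.30 and 4.56 and that of the G2-M markers 3.09 and 4.76. The summed CPM of 8 fibroblast and endothelial markers was also uneven and higher in replicate 2 each time. It was 34.2 and 260 in untreated, 52.7 and 286 at 3 days and 58.5 and 295 at 5 days. Without untreated replicate 1 the 5-day count was 2, without untreated replicate 2 it was 8, and without WT 5-day replicate 1 it was 0. At 3 days it was 0 without untreated replicate 1 and 0 without either irradiated library. The p53 target list rose in both cases (11 and 13 of 16 higher).

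The CDK1 inhibitor, which blocks entry into mitosis, was compared with DMSO in irradiated WT cells at 5 days. Here 39 of 39 genes had a positive log2 fold change, with a median of 0.77 beside -0.04 over all genes, but 3 passed the test, beside 4.73 and 7.37% of all genes called higher and lower (12.1% either way): POLQ (1.72 ± 0.48), XRCC2 (1.51 ± 0.40) and FANCA (1.42 ± 0.40). The 2 libraries with CDK1i were far apart. FANCD2 stood at 20.7 and 68.7 CPM with CDK1i and at 12.5 and 16.3 CPM with DMSO, and BRCA1 at 22.0 and 61.4 CPM against 12.2 and 15.1 CPM. The count was 19 without CDK1i replicate 1, 0 without CDK1i replicate 2, and 0 without either DMSO library. The S phase and G2-M lists were uneven in the same 2 libraries, at 4.72 and 5.74 and at 5.31 and 6.58 mean log2 CPM, and 10 of 41 and 3 of 30 of their genes were called higher. Their part was not tested.

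Other genes of the pathway gave a wider spread of directions. Of 46 further recombination and Fanconi genes 45 were tested in each part. In p53 KO cells 26 were higher and 8 lower, beside 25.9 and 27% of all genes. In DKO against XRCC4 KO cells these were 25 and 13, beside 32.2 and 32.7%, and in RPE-1 p53 KO cells 22 and 9, beside 34.2 and 32.5%. The meiotic recombination cofactor MND1 was the most changed in p53 KO MCF10A cells (2.05) and in RPE-1 p53 KO cells (2.18). EME2, a nuclease partner of MUS81, was the lowest in both MCF10A comparisons (-1.42 and -1.29), opposite in direction to its relative EME1 (1.88 ± 0.15 and 2.03 ± 0.17). The EME2 row spans chr16:1823208-1844972 and holds 32980 counts over all libraries, against 2557 for EME1. Overlap with other rows was not checked for the 46 genes, so its reads may include those of neighbours. With ATRi 9 of the 45 were lower and 1 higher in XRCC4 KO cells, beside 10.3 and 6.67% of all genes, and 27 and 3 in DKO cells, beside 32.4 and 26.1%. ERCC4, a nuclease gene known to bind SLX4, was the highest in both (0.32 and 0.63), as SLX4 was among the 39. Without XRCC4 at 3 days 16 were higher and 10 lower, beside 28.6 and 27.5% of all genes, a share near the background. MRE11, the third subunit of the RAD50-NBN complex, was higher by 0.75 ± 0.07.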

How the data were processed

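Poly-A RNA was measured in 32 libraries. Estimated counts per gene, with fractional values, and FPKM were deposited by the authors on hg19, with STAR, Cuffnorm, DESeq2, FastQC and bcl2fastq listed, without roles, per the submitters' processing notes. The annotation and strand setting are not given in the sources used here. Of the estimated counts, 96.0 to 97.3% per library were whole, and all were rounded. Here edgeR 4.0.16 fitted each part (15190, 16632 and 15469 genes passing its filter by group) with TMM factors, a group term and quasi-likelihood F tests, with standard errors taken as the fold change over the root of F. Tested on simulated data, it returned median fold changes near those put in but did not call every changed gene. DESeq2 1.42.0 and limma 3.58.1 on log2(FPKM + 1) and log2(FPKM + 0.1) were alternatives, with RLE factors, no filter, a replicate block, only the libraries compared and each library left out. Genes were named by role: the largest and smallest called change per role and direction, 12 anchor genes, calls against the majority, and exceptions. Members and lists were chosen with earlier results of these data known.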

Additional observations from a re-analysis of the deposited data

Results flagged for a closer look

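The responses with and without p53 were compared by testing their difference. The difference in the response to ATRi was called for 12 of 39 genes, beside 34% of all genes either way, so nothing is read from the count. Most of these calls were positive, where 13% of all genes were called positive and 21% negative. The edgeR log2 difference, DKO minus XRCC4 KO, was positive for RAD51AP1 (1.32), BRCA2 (1.02) and RECQL4 (0.77) and negative for RBBP8 (-0.39) and FANCC (-0.57). On log2(FPKM + 1) 2 genes were called, and RBBP8 turned to 0.0013. The difference in the effect of XRCC4 loss was called for 19 of 39 genes, beside 43.7% of all genes either way, which is likewise near the background. Most of these calls were positive too, where 20.9% of all genes were called positive and 22.8% negative. The XRCC4 difference was positive, without p53 minus with it, for XRCC2 (1.08), POLQ (0.68) and UBE2T (0.61) and negative for NBN (-0.86), FANCF (-0.72) and RAD50 (-0.61). On log2(FPKM + 1) 10 genes were called.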

How the results depend on the processing

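Numbers of the 39 genes called are given, and the cause of each change was not tested. With RLE factors 0 were called at 3 days after irradiation, and without the filter 5 in XRCC4 KO at 5 days; POLQ, XRCC2 and FANCA then lost their CDK1i calls. The replicate block moved CDK1i to 7 and no other count by over 1.5 times. The numbers were not taken as pairs, since not every correlation was over 0.1 (7 of 21 group pairs in part 1, 0 of 15 and 0 of 3 in parts 2 and 3). Deviations of same-numbered libraries correlated at -0.265 to 0.439 in part 1, -0.0493 to 0.0623 in part 2 and -0.0229 to 0.0295 in part 3. In every WT group of part 1 replicate 2 had the higher mean log2 CPM of the 39 genes. It read 3.79 against 3.07 untreated, 3.67 against 3.40 at 3 days, 3.72 against 3.50 at 5 days and 4.80 against 3.92 with CDK1i. Whether these libraries share a batch by number is not stated, and the main tests of irradiation and CDK1i do not model it. The older dispersion estimate, added after seeing the data, gave 0 at 3 days and 1 for CDK1i. DESeq2 gave 9 for CDK1i, 20 for XRCC4 KO at 5 days, 12 for DKO against p53 KO and 7 for the ATRi difference. Fitting only the libraries compared gave 0 and 2 at 3 and 5 days after irradiation, 0 for CDK1i, 6 for cGAS KO and 25 for XRCC4 KO at 5 days. On log2(FPKM + 1) and log2(FPKM + 0.1) counts were 0 and 0 at 3 days, 1 and 1 at 5 days, 1 and 1 for CDK1i, 0 and 0 for cGAS KO, 0 and 0 for STING KO, 6 and 5 for DKO against p53 KO, 11 and 13 for ATRi in XRCC4 KO, 20 and 17 for ATRi in DKO, 2 and 2 for the ATRi difference, 10 and 9 for the XRCC4 difference, and 16 and 17 for RPE-1 WT cGAS.

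Leaving out each library gave 0 to 1 at 3 days, 0 to 8 at 5 days, 0 to 0 between them, 0 to 19 for CDK1i, 0 to 1 for cGAS KO, 0 to 1 for STING KO, 1 to 6 and 13 to 17 for XRCC4 KO at 5 and 3 days, 31 to 35 for p53 KO, 32 to 33 for DKO against XRCC4 KO, 14 to 22 for DKO against p53 KO, 22 to 24 and 30 to 32 for ATRi in XRCC4 KO and DKO, 33 to 35 for DKO under ATRi, 9 to 11 and 14 to 20 for the ATRi and XRCC4 differences, and 23 to 25 and 28 to 33 for RPE-1 WT cGAS and p53 KO. The lone library left in a group is then assumed to vary like the others.

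Of 3916 alternative values for called genes, 3383 kept direction and call, 496 lost the call and 37 changed sign, all on FPKM. With pseudocounts of 1 and 0.1 these were GEN1 (-0.30 and -0.34) in XRCC4 KO at 3 days; RAD50 (0.11 and 0.11) in DKO against XRCC4 KO; TOP3A (-0.0171 and -0.0178) in DKO against p53 KO; and RAD50 (0.0685 and 0.0696) with ATRi in XRCC4 KO. With ATRi in DKO they were BARD1 (0.24 and 0.26), BRCA2 (0.0072 and 0.0066) and RECQL4 (0.0267 and 0.0271), and in DKO under ATRi RBBP8 (0.21 and 0.22). For the ATRi difference they were RBBP8 (0.0013 and 0.0039), RAD54L (-0.80 and -0.65), EME1 (-0.21 and -0.0176), POLQ (-0.52 and -0.42) and, with 1 alone, BRIP1 (-0.28), and for the XRCC4 difference BARD1 (-0.40 and -0.34). In RPE-1 they were BRCA2 (-0.15 and -0.24) and FANCD2 (0.0759 and 0.15) in WT cGAS, and RAD50 (0.29 and 0.30), RBBP8 (0.25 and 0.26) and BARD1 (-0.62 and -0.70) in p53 KO. FPKM scaling moved the median of all genes to as much as 0.47 (DKO under ATRi, pseudocount 0.1). Genes at a few CPM and the uneven libraries of part 1 limit what could be called.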
